A study of Mus musculus with 26 samples.

Results

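DN1eP thymocytes, which the study treats as precursors of natural killer T (NKT) cells, were compared with stage 3 thymic NKT cells, the most mature NKT stage of the thymus. The comparison takes 7 of the 26 RNA-seq libraries: DN1eP libraries 1 to 4, and libraries 4 to 6 of stage 3, called NKT-3. The NKT-3 libraries were chosen by a property of the library and not of any gene: among the 6 stage 3 libraries, they are the 3 whose expressed genes have the same low median level as those of DN1eP, between 7.58 and 8.94 FPKM in all 7. FPKM is a fragment count scaled by the length of the transcript and the size of the library. The series covers DN1eP, NKT cells grown from them in culture, and thymic NKT cells of stages 1, 2 and 3. All cells came from the thymus of C57BL/6 mice of 6 to 8 weeks, and the labels name no mutation, transgene or treatment for the groups used here. The gate for DN1eP took CD44+ CD25- cells without lineage markers that were CD24low, CD5+, CD27+, Ly108- and CXCR3+ and had no Vα14Jα18 T cell receptor on their surface. Stage 3 cells were sorted as cells that bind αGalCer-loaded CD1d dimers and carry TCRβ, CD44 and NK1.1. Stage 1 and stage 2 libraries (3 each, of the same low median) are given for scale. A culture of 10 days on OP9/Dll-1 stromal cells with 5 ng/ml of IL-2 and IL-7 stands in the labels of every library, while the design text describes DN1eP as taken straight from the thymus. The labels name 2 library kits, SMARTer Ultra Low and TruSeq v2, without saying which library had which. They do not say that replicates came from separate animals, so p-values measure only the spread between these libraries, which may be technical.

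NKT cells are T cells with an invariant receptor that recognises lipids presented by CD1d, and they are selected in the thymus. On the way to maturity many of them become NKT1 cells, which depend on the transcription factor T-bet, make interferon-γ, and take up the receptors and granule proteins of natural killer (NK) cells. Other thymic NKT cells become NKT2 cells, which make IL-4, or NKT17 cells, which carry the IL-23 receptor and make IL-17. Double-negative 1 (DN1) cells, which lack CD4 and CD8 and carry CD44 but not CD25, are the compartment of the thymus in which the earliest T cell progenitors are found.

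The DN1eP libraries were not alike, and this bears on every count below. Library 1 held an estimated 18900000 fragments, close to the 19500000 to 26900000 of the NKT-3 libraries, while libraries 2 to 4 held 994000 to 1780000. The 3 stage 3 libraries left out of the comparison held 1090000, 2610000 and 1210000. The NKT-3 libraries were thus matched to DN1eP in median level but not in depth. Without library 1, shallow DN1eP libraries alone are set against deep NKT-3 libraries. The deposited 95% interval of a gene at 20 to 100 FPKM reached 5.53% to 6.31% to either side of its value in the 4 deep libraries, and 18.8% to 23.8% in DN1eP libraries 2 to 4. Over 23168 genes, library 1 correlated with the 3 NKT-3 libraries at 0.964 to 0.972 (Pearson, across genes, log2(FPKM + 1)), and with DN1eP libraries 2 to 4 at 0.925 to 0.940. The latter correlated with each other at 0.956 to 0.960. Against the gene intervals of DN1eP library 2, library 1 and NKT-3 library 4 each had 99 rows with another interval, and DN1eP library 4 had 130. DN1eP library 3 and NKT-3 libraries 5 and 6 had 0. Whether the 99 rows are the same in both was not compared. Depth, preparation and the cells as sources of the unlikeness of the DN1eP libraries cannot be told apart here. The T cell genes Cd3d, Cd3e and Cd3g were high in all 7 libraries, as given below. Of the NKT-3 libraries, number 5 stood apart in genes of other cells: the hemoglobin gene Hba-a1 was at 315 FPKM there, against 10.98 and 11.4 in the others and 0 in each DN1eP library. Hba-a2 was at 351 and Hbb-b2 at 151 FPKM in that library, the B cell gene Cd79a at 15.4, the class II gene H2-Aa at 82.2, and the myeloid genes S100a8 and Lyz2 at 42.3 and 25.3. Results are therefore given with and without DN1eP library 1, and with and without NKT-3 library 5 where a count leads. In the text below, "called" means an adjusted p under 0.05 in limma (Benjamini-Hochberg over all genes tested), and log2 fold changes are DN1eP minus NKT-3 on log2(FPKM + 1), which understates the change of low genes.

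A minority of genes was called between DN1eP and stage 3. Of 9943 genes tested, 531 (5.34%) were called higher in DN1eP and 106 (1.07%) lower, and the median log2 fold change was 0.20. For 3787 genes (38.1%) the 95% interval of the difference lay within 2-fold. At an unadjusted p under 0.05 there were 2818 genes. Without DN1eP library 1, 2089 of 9778 genes were called higher (21.4%) and 561 lower (5.74%), and 636 genes were called with the same sign with and without it. Without NKT-3 library 5, 43 genes were called higher and 3 lower. Without both libraries 2199 genes were called. Leaving out NKT-3 library 6 brought the calls down to 16, all higher in DN1eP, and these 16 were called in each of the 7 fits that left out 1 library, with 0 lower. Of the called genes named below that could be tested, 29 of 86 were still called without DN1eP library 2, 35 of 86 without library 3, 29 of 86 without library 4, and 51, 26 and 15 of 87 without NKT-3 libraries 4, 5 and 6. Without DN1eP library 1 all 89 were. Scaling changed the balance of directions. After upper-quartile scaling, with the median over all genes shifted by -0.18, 174 genes were called higher and 135 lower, and after quantile normalization, with a shift of -0.26, 210 and 222 were. The share of calls that were higher was thus 83.4% as deposited, 56.3% after upper-quartile scaling and 48.6% after quantile normalization.

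**Figure D1:**
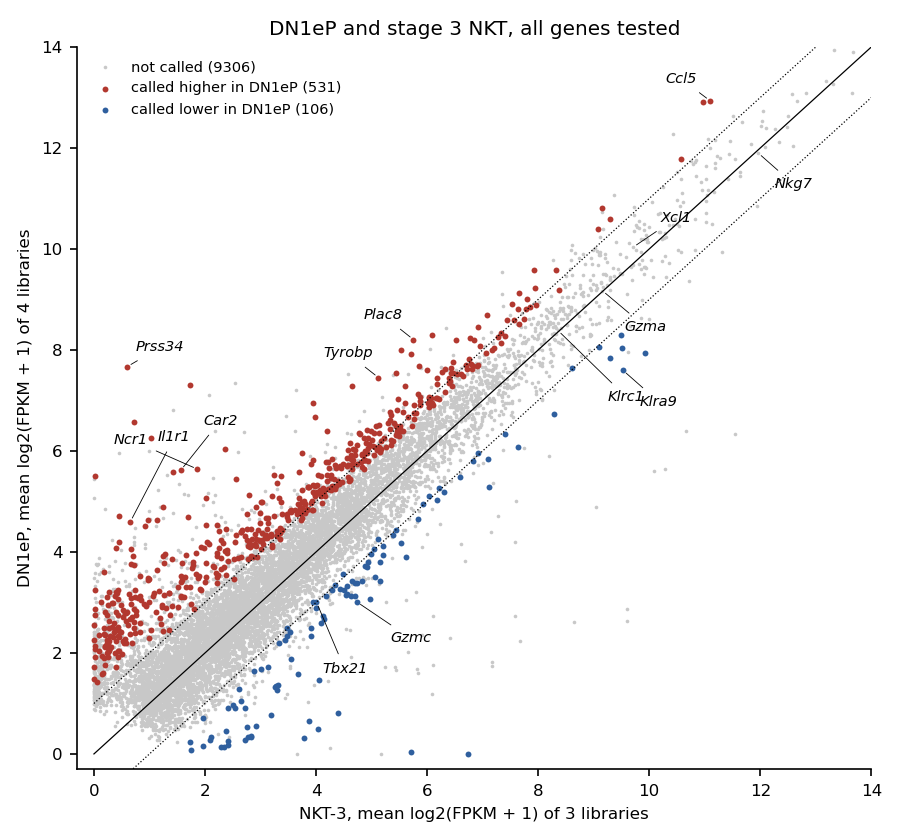
Mean log2(FPKM + 1) of each of the 9943 tested genes in the 3 NKT-3 libraries (horizontal) and the 4 DN1eP libraries (vertical), with the line of equal levels (solid) and of 2-fold differences (dotted). The NK and cytotoxic genes Klrc1, Gzma, Nkg7 and Xcl1 lie inside the 2-fold lines, Ncr1, Il1r1, Car2 and Prss34 lie far above them, and 531 red and 106 blue points mark genes called higher and lower.

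The genes of the sort gate and 5 regulators of NKT cells were looked at first. Among the gate genes, 2 of 8 were called higher and 1 lower, and since the cells were sorted on these proteins their RNA is not an independent finding. Il2ra, which encodes CD25, was at 14.4, 6.91, 10.1 and 8.14 FPKM in DN1eP libraries 1 to 4 and at 2.91, 1.93 and 1.25 FPKM in NKT-3 libraries 4 to 6. It was higher in DN1eP, which were gated as CD25- (1.84 ± 0.33 SE, limma adjusted p = 0.0185). Cd27 was higher (0.91, adjusted p = 0.0393) and Cd5 lower (-1.10, adjusted p = 0.0394). Slamf6, which encodes Ly108, was at 0.174, 13.01, 12.7 and 7.11 FPKM in DN1eP libraries 1 to 4 and at 8.58, 6.67 and 5.86 FPKM in NKT-3 libraries 4 to 6. DN1eP were gated without Ly108, and only library 1 lay below the NKT-3 libraries in its RNA. Klrb1c, which encodes NK1.1 and is part of the stage 3 gate alone, was at 495, 216, 234 and 170.4 FPKM in DN1eP libraries 1 to 4 and at 563, 453 and 439.9 FPKM in NKT-3 libraries 4 to 6. DN1eP libraries 2 to 4 were lower than every NKT-3 library and library 1 was inside their range, and the gene was called lower only without library 1 (-1.23, adjusted p = 0.00121). Cxcr3 was at 423, 170.5, 123 and 140.0 FPKM in DN1eP and 345, 238 and 272 in NKT-3, with library 1 above every other library and libraries 2 to 4 below the NKT-3 range. Cd24a was at 0.937, 12.4, 15.9 and 7.64 FPKM in DN1eP and 0, 1.74 and 0 in NKT-3 and was not called with library 1 in the fit. The interval of Cd44 lay within 2-fold.

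Tbx21, which encodes T-bet, the factor on which NKT1 cells depend, was at 8.15, 6.98, 7.01 and 6.12 FPKM in DN1eP libraries 1 to 4 and at 16.6, 15.1 and 13.7 FPKM in NKT-3 libraries 4 to 6. All 4 DN1eP libraries were lower, at about the same level, and the difference was called (-1.002 ± 0.24 SE, limma adjusted p = 0.0397), though in only 1 of 7 fits that left out 1 library. DN1eP were above stage 1, at 2.36 ± 0.566 FPKM (mean ± SD, n = 3), and stage 2, at 3.62 ± 1.86. Eomes, a T-box factor of NK and memory CD8 cells related to T-bet, was higher in DN1eP. It was at 1.21, 5.199, 4.78 and 3.63 FPKM in DN1eP and 0.0325, 0 and 0 in NKT-3, without overlap (2.11 ± 0.40, adjusted p = 0.0223). Gata3, needed by T cells from their first thymic steps, did not separate the groups (95% interval -0.48 to 0.42). Zbtb16, which encodes PLZF, the factor that directs the innate-like program of NKT cells, was at 2.73, 6.77, 1.75 and 3.29 FPKM in DN1eP and 3.52, 0.956 and 1.94 in NKT-3 (0.54, adjusted p = 0.435), and stage 1 held 13.2 ± 3.41. Egr2, induced by the T cell receptor signal that selects NKT cells, was at 1.62, 2.97, 4.97 and 4.65 FPKM in DN1eP and 5.89, 2.89 and 4.20 in NKT-3 (-0.26, adjusted p = 0.684).

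NK receptors and their adaptors give NKT1 cells part of the recognition system of NK cells. Of 20 such genes tested, 3 were called higher in DN1eP and 0 lower, where 5.34% and 1.07% of all genes were. On the lower side 4 had an unadjusted p under 0.05, and 10 of the 20 had an interval within 2-fold, as 38.1% of all genes had. Their median log2 fold change was -0.20, and that of all genes 0.20. Without library 1 the calls were 3 higher and 6 lower, where 21.4% and 5.74% of all genes were, and without NKT-3 library 5 they were 2 and 0. Against the earlier stages, in 1 fit of the 13 low-median libraries, 19 of the 20 were higher in DN1eP than in stage 1, where 14.5% of all genes were higher and 15.4% lower, and 18 were higher than in stage 2, where 16.8% were higher and 8.37% lower. These comparisons share the DN1eP libraries with the one against stage 3. In bulk RNA, fewer cells of a type and less RNA per cell cannot be told apart.

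Klrc1, which encodes the NKG2A chain of an inhibitory NK receptor, was at 433, 312, 314 and 294 FPKM in DN1eP libraries 1 to 4 and at 389, 295 and 303 FPKM in NKT-3 libraries 4 to 6. The groups overlapped, and the 95% interval of the difference was -0.46 to 0.53. Stage 1 held 7.63 ± 10.7 and stage 2 3.18 ± 1.37 FPKM. Fcer1g, the signalling adaptor of Fc receptors and several NK receptors, was at 483, 485, 429 and 442 FPKM in DN1eP and 665, 617 and 546 in NKT-3, with each DN1eP library below the NKT-3 range and the interval still within 2-fold. Hcst, the DAP10 adaptor of NKG2D, was at 772, 700.1, 496 and 726 FPKM in DN1eP and 999, 715 and 797 in NKT-3, and Cd160, a receptor of NK cells and cytotoxic T cells, at 145, 109.7, 87.6 and 93.9 FPKM in DN1eP and 162, 103 and 122 in NKT-3, both within 2-fold. Klrd1, which encodes CD94, the partner of NKG2A, was at 876, 518, 381 and 382 FPKM in DN1eP and 1079, 884 and 853 in NKT-3. Here libraries 2 to 4 were below the NKT-3 range and library 1 inside it (adjusted p = 0.0889, and 0.00297 without library 1). Klre1, another receptor of this family, was at 283, 117, 123 and 115 FPKM in DN1eP and 340.4, 329 and 269 in NKT-3 with the same split, and Klrk1, which encodes NKG2D, at 383, 188, 168 and 148 FPKM in DN1eP and 288, 292 and 230.0 in NKT-3. Fcer1g was at 272 ± 75.2 FPKM (SD) in the 3 stage 3 libraries outside the comparison, of higher median level, below each DN1eP library. Its lower level in DN1eP thus holds only against NKT-3 libraries 4 to 6. Klrc1, Hcst and Cd160 were also below each DN1eP library there. Klrd1 was at 499 ± 34.4 there, with DN1eP library 1 above, library 2 inside and libraries 3 and 4 below that range. In Klre1 and Klrk1, DN1eP libraries 2 to 4 were below those libraries and library 1 above.

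Ncr1, which encodes the activating receptor NKp46 of NK cells, was the member of this group with the largest change. It was at 42.1, 60.0002, 45.8 and 49.3 FPKM in DN1eP libraries 1 to 4 and at 3.41, 3.82 and 1.27 FPKM in NKT-3 libraries 4 to 6. Every DN1eP library, library 1 included, lay above every NKT-3 library, and the difference was 3.78 ± 0.30 SE (limma adjusted p = 8.53e-05), called in 7 of 7 fits that left out 1 library. Ncr1 was listed at 0 in the stage 1 libraries, and at a mean of 0.0257 FPKM in stage 2. Tyrobp, the DAP12 adaptor of activating NK and myeloid receptors, was at 115, 209, 192 and 199.99 FPKM in DN1eP and 28.1, 57.4 and 23.98 in NKT-3 and did not overlap (2.33 ± 0.32, adjusted p = 0.00606). Fcgr3, the Fc receptor CD16 of NK and myeloid cells, was at 18.4, 16.2, 17.5 and 14.97 FPKM in DN1eP and 7.74, 10.5 and 6.79 in NKT-3 (0.94 ± 0.24, adjusted p = 0.0456) and was called in 1 of the 7 fits.

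Members of each behaviour were chosen for print. Klrc1 and Nkg7 were at like levels in DN1eP and NKT-3 libraries 4 to 6. Ncr1 was higher in all DN1eP libraries, and Il17f was high in DN1eP libraries 2 to 4. The promoters of these 4 genes are printed. Each is the 250 bases before the first listed start in RefSeq GRCm38.p6, 5′ to 3′ on the gene's strand, at chr6:129678974-129679223 (minus strand), chr7:43436888-43437137 (plus), chr7:4337465-4337714 (plus) and chr1:20784271-20784520 (minus). Capitals mark the RUNX core motif, TGTGGT or its reverse complement ACCACA, and the T-box motif AGGTGTGA or its reverse complement. Both strands were searched, and the marked motifs do not overlap.
Klrc1: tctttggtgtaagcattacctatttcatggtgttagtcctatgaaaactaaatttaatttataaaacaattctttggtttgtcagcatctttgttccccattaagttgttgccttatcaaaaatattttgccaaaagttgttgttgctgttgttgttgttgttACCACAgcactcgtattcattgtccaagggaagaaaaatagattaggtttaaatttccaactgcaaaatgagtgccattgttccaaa
Nkg7: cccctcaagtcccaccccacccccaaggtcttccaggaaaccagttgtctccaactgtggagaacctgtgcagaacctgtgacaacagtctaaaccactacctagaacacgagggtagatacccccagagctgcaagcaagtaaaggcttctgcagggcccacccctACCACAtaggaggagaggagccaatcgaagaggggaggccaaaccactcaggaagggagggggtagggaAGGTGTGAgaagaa
Ncr1: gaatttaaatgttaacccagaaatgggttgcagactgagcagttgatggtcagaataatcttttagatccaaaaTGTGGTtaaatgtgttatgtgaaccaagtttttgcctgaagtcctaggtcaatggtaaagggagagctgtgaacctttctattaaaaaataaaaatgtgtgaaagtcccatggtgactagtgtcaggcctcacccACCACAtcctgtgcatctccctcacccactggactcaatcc
Il17f: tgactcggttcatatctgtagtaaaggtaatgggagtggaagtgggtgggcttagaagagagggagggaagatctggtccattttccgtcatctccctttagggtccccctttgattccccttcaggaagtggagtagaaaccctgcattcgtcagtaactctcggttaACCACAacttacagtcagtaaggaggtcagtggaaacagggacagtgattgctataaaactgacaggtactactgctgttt
The RUNX core lies 87 bases before the start of Klrc1, 83 before that of Nkg7, 176 and 41 before that of Ncr1, and 81 before that of Il17f. The T-box motif lies 14 bases before the start of Nkg7. Among all 27025 promoters of the table, 14.2% hold the RUNX core in such a window and 1.14% the T-box motif. The RUNX core was found in 8 of 14 NK receptor and adaptor promoters with an entry, 1 of 10 Ly49 promoters, 9 of 18 cytotoxic gene promoters, 6 of 21 chemokine and cytokine promoters and 3 of 15 NKT17 promoters. A match describes the letters only, and the motifs and genes were chosen after the expression values were seen.

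The Ly49 receptors, which on NK cells and mature NKT cells bind class I molecules, were lower in DN1eP where they were called. Of 10 members, 8 were tested, 0 were called higher (0 at an unadjusted p under 0.05) and 3 lower, with a median log2 fold change of -1.19. Without library 1, 6 were called lower, and without NKT-3 library 5 there were 0 calls. The share of all genes called lower was 1.07%, and 5.74% without library 1. Klra1 was at 171, 108, 88.7 and 75.1 FPKM in DN1eP libraries 1 to 4 and at 383, 277 and 283 FPKM in NKT-3 libraries 4 to 6. All DN1eP libraries were below the NKT-3 range, with a difference of -1.55 ± 0.28 (SE; limma adjusted p = 0.0193, called in 3 of 7 fits). Klra9 was at 508, 174, 141 and 109.5 FPKM in DN1eP and 882, 826 and 551 in NKT-3 (-1.93 ± 0.48, adjusted p = 0.0481), and Klra3 at 152, 65.4, 49.1 and 39.7 FPKM in DN1eP and 238, 199 and 166 in NKT-3 (-1.57 ± 0.40, adjusted p = 0.0496). In both, library 1 came nearest to the NKT-3 libraries. Klra7 had an interval within 2-fold. In the 3 stage 3 libraries outside the comparison, of higher median level, Klra1, Klra9 and Klra3 were at 156 ± 13.9, 578 ± 132 and 149.6 ± 26.9 FPKM (SD). DN1eP libraries 2 to 4 were below those libraries in each of these genes. Library 1 was above them in Klra1 and inside their range in Klra9 and Klra3. Klra7 was at 80.0 ± 9.24 there, below each DN1eP library. All 8 tested Ly49 genes were higher in DN1eP than in stage 1 and 6 than in stage 2, where 14.5% and 16.8% of all genes were. The Ly49 genes are near-identical copies, and how the authors' counting divided reads among them makes the single members uncertain.

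Cytotoxic granule and death ligand genes are the killing equipment of NK and NKT1 cells. Of 18 tested, 13 had an interval within 2-fold, as 38.1% of all genes had. Of the 18, 1 was called higher and 1 lower (median -0.0012), where 5.34% and 1.07% of all genes were. Without library 1 the calls were 1 and 2, where 21.4% and 5.74% of all genes were. In the same fit as above, 12 were higher in DN1eP than in stage 1 and 11 than in stage 2, where 14.5% and 16.8% of all genes were. Nkg7, a granule membrane protein needed for degranulation, was among the most abundant, at 5382, 3521, 3501 and 3243 FPKM in DN1eP libraries 1 to 4 and at 4799.6, 3504 and 3758 FPKM in NKT-3 libraries 4 to 6. The groups overlapped, and stages 1 and 2 held 124 ± 67.8 and 357 ± 123 FPKM. Gzma, the protease granzyme A, was at 954, 454, 499.6 and 514 FPKM in DN1eP and 576, 694 and 460.2 in NKT-3 against 12.1 ± 6.59 in stage 1, and Ctsw, a cathepsin of cytotoxic cells, at 1154, 672, 660.4 and 737 FPKM in DN1eP and 1076, 1029 and 842 in NKT-3. The lysosomal protease gene Ctsd and the pore-forming protein gene Prf1 were within 2-fold too, with Prf1 at 88.5, 44.3, 36.6 and 36.3 FPKM in DN1eP and 58.6, 59.0 and 43.4 in NKT-3. The 3 stage 3 libraries outside the comparison, of higher median level, held Nkg7 at 1210 ± 111 FPKM (SD). They held Gzma at 231 ± 29.4 and Ctsw at 455 ± 50.2, all below each DN1eP library. Prf1 was at 38.9 ± 0.801 there, inside the DN1eP range. The like levels of Nkg7, Gzma and Ctsw thus hold only against NKT-3 libraries 4 to 6.

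Other granule genes did differ. Gzmc, granzyme C, was at 16.6, 4.99, 5.01 and 5.63 FPKM in DN1eP and 28.4, 27.8 and 21.4 in NKT-3 and was lower in DN1eP (-1.73 ± 0.37, limma adjusted p = 0.0314). Gzmm, granzyme M, was low in both at 1.62, 4.21, 5.07 and 4.27 FPKM in DN1eP and 0.617, 0.786 and 0.157 in NKT-3 and higher in DN1eP (1.61 ± 0.37, adjusted p = 0.0377). Gzmb, granzyme B, was at 978, 273, 209.9 and 287 FPKM in DN1eP and 876, 889 and 680.5 in NKT-3. Library 1 lay above the NKT-3 range and libraries 2 to 4 far below it. The gene was not called with library 1 (adjusted p = 0.136) and was lower without it (-1.67, adjusted p = 0.000207). Fasl, the death ligand, was at 242, 239, 260.3 and 208 FPKM in DN1eP and 158, 204 and 115 in NKT-3 (adjusted p = 0.112).

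**Figure D2:**
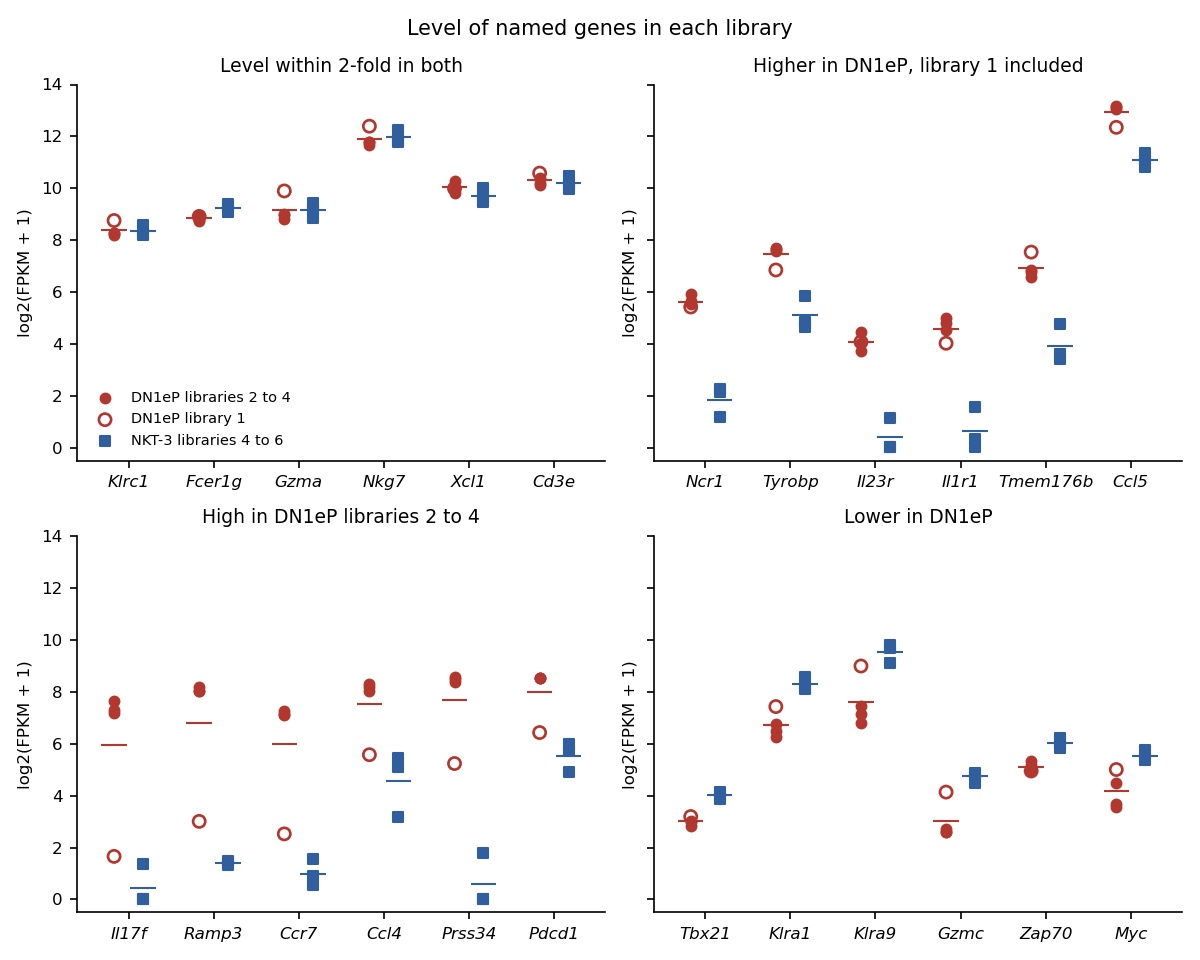
Level of 24 named genes in each of the 7 libraries as log2(FPKM + 1), with DN1eP libraries 2 to 4 as filled circles, DN1eP library 1 as an open circle, NKT-3 libraries 4 to 6 as squares and group means as lines. In the upper left panel the open circle lies above the filled circles for Klrc1, Gzma, Nkg7 and Cd3e. In the upper right panel it lies above the squares for every gene. There it is below the filled circles for Ncr1, Tyrobp, Il1r1 and Ccl5 and above them for Tmem176b. It lies below the filled circles in the lower left panel, and between them and the squares for Tbx21, Klra1, Klra9, Gzmc and Myc in the lower right panel.

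Among 18 chemokine and cytokine genes tested of 24, 4 were called higher in DN1eP and 1 lower, with a median log2 fold change of 1.31. Without library 1 the calls were 10 and 2, and without NKT-3 library 5 they were 2 and 0. Over all genes 5.34% were called higher and 1.07% lower, and 21.4% and 5.74% without library 1. Ccl5, a chemokine of memory and cytotoxic T cells, was at 5221, 9091, 9317 and 8562 FPKM in DN1eP libraries 1 to 4 and at 2167, 2651 and 1815 FPKM in NKT-3 libraries 4 to 6. It was higher in every DN1eP library (1.84 ± 0.30 SE, limma adjusted p = 0.0145), and stages 1 and 2 held 16.98 ± 13.4 and 58.0 ± 8.57 FPKM. Xcl1, a chemokine of activated NK and T cells, did not separate the groups at 1019.8, 1246, 915 and 1036 FPKM in DN1eP and 1039.8, 703 and 798 in NKT-3, with an interval within 2-fold and 10.8 ± 12.6 FPKM in stage 1. Il4 was also within 2-fold, at 65.3, 48.1, 64.6 and 52.2 FPKM in DN1eP and 63.6, 47.2 and 45.8 in NKT-3, below the 196 ± 45.9 FPKM of stage 1. Ifng, the defining cytokine of NKT1 cells, was at 136, 78.9, 72.1 and 76.3 FPKM in DN1eP and 186, 53.3 and 149 in NKT-3 (95% interval -1.29 to 0.54), with NKT-3 library 5 the lowest of all.

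Il22, a cytokine of IL-17-producing and innate lymphoid cells, was at 3.97, 3.09, 8.29 and 5.23 FPKM in DN1eP and listed at 0 in each NKT-3 library (limma adjusted p = 0.00613). Stage 2 held 7.40 ± 6.70 FPKM. Lta, lymphotoxin-α, was higher (1.33, adjusted p = 0.028) and Ltb, its membrane partner, lower (-1.15, adjusted p = 0.0496). The macrophage inflammatory proteins Ccl3 and Ccl4 and the cytokine Il17f were high in libraries 2 to 4 and near the NKT-3 levels in library 1. Il17f was at 2.16, 199.7, 146 and 158 FPKM in DN1eP libraries 1 to 4 and at 0, 1.599 and 0 FPKM in NKT-3 libraries 4 to 6. With library 1 in the fit the difference was not called (adjusted p = 0.109) and was 6.93 without it (adjusted p = 1.94e-07). Ccl3 was at 3.74, 80.8, 117 and 58.7 FPKM in DN1eP and 3.42, 0.442 and 2.78 in NKT-3, and Ccl4 at 46.7, 317, 289 and 258 FPKM in DN1eP and 42.5, 7.94 and 33.3 in NKT-3. Il17a, the defining cytokine of NKT17 cells, was at 0.252, 15.1, 4.73 and 15.4 FPKM in DN1eP and 0.197, 0.344 and 0.526 in NKT-3. Ccl9 was at 1.42, 23.4, 20.5 and 15.9 FPKM in DN1eP and 0.181, 0.231 and 0.00997 in NKT-3 and was called with library 1 (3.41 ± 0.75, adjusted p = 0.0405). Markers of mast cells and basophils were high in the same 3 libraries, with summed levels of 620.3, 519.7 and 576 FPKM in libraries 2, 3 and 4, 78.5 in library 1 and at most 8.81 in NKT-3, and their part in these differences was not tested.

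The regulators and cytokine receptors of NKT1 cells gave 6 calls higher and 1 lower of 20 tested. Their median log2 fold change was 0.12 as deposited, -0.08 after upper-quartile scaling and -0.17 after quantile normalization. Without library 1 the calls were 8 and 4, and without NKT-3 library 5 there were 0. All genes tested gave 5.34% higher and 1.07% lower, and 21.4% and 5.74% without library 1. Beside Tbx21 and Eomes, the called genes were Bhlhe40, a factor that sustains interferon-γ production, at 127, 233, 257 and 235 FPKM in DN1eP and 83.5, 28.1 and 76.3 in NKT-3 (1.84 ± 0.39, limma adjusted p = 0.0326), the Ikaros family factor Ikzf2 (1.66), the IL-12 signal transducer Stat4 (0.87), the interferon-γ receptor chain Ifngr1 (0.82) and the IL-21 receptor Il21r (1.20), with adjusted p between 0.0288 and 0.0498. Il21r was called although library 1 lay inside the NKT-3 range. In the 3 stage 3 libraries outside the comparison, of higher median level, Il21r was at 60.4 ± 4.86 FPKM (SD), against a DN1eP mean of 59.8. There Bhlhe40, Ikzf2, Stat4 and Ifngr1 had means of 127, 9.18, 59.3 and 280 FPKM. Their DN1eP means were higher, at 213, 18.6, 83.8 and 587. The IL-18 receptor genes Il18r1 and Il18rap and the RUNX factor Runx3, which with T-bet serves cytotoxic cells, had intervals within 2-fold. Id2, an inhibitor of E proteins, was at 4363, 1434, 1282 and 1411 FPKM in DN1eP and 4474, 3917 and 3486 in NKT-3. Libraries 2 to 4 stood at roughly the level of stage 1 (1464 ± 679), while library 1 was inside the NKT-3 range. The 3 stage 3 libraries outside the comparison, of higher median level, held Id2 at 832 ± 91.7 FPKM (SD), below each DN1eP library. Il2rb, the IL-2 and IL-15 receptor chain that marks NKT1 cells, was at 449, 235, 284 and 312 FPKM in DN1eP and 651, 364 and 494 in NKT-3, and Il12rb2, a chain of the IL-12 receptor, at 41.9, 34.8, 26.01 and 21.5 FPKM in DN1eP and 48.4, 41.7 and 48.7 in NKT-3. Ifngr2, the second chain of the interferon-γ receptor, was at 0.966, 24.4, 23.0 and 24.5 FPKM in DN1eP and 0.115, 0.497 and 0.0545 in NKT-3.

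Genes of the T cell receptor complex were measured in both populations, with DN1eP sorted as lacking the invariant receptor on the surface. Of 27 tested, 15 had an interval within 2-fold, as 38.1% of all genes had, 4 were called higher and 2 lower. The median was 0.15 as deposited, -0.07 after upper-quartile and -0.10 after quantile scaling, and without library 1 the calls were 7 and 3. Of all genes, 5.34% were called higher and 1.07% lower with all libraries, and 21.4% and 5.74% without library 1. Cd3g, a chain of the CD3 complex, was at 2823, 2097, 2050.0 and 1736 FPKM in DN1eP libraries 1 to 4 and at 2506, 1797 and 2050.2 FPKM in NKT-3 libraries 4 to 6. Cd3e was at 1538, 1336, 1186 and 1117 FPKM in DN1eP and 1431, 999 and 1105 in NKT-3 and Cd3d at 836, 858, 706 and 705 FPKM in DN1eP and 878, 568 and 677 in NKT-3, and the groups overlapped in all 3 genes. The kinase Lck and the adhesion receptor Cd2 were within 2-fold as well. Cd247, the ζ chain through which the complex signals, was at 229, 381, 325 and 257 FPKM in DN1eP and 129, 117 and 98.9 in NKT-3 and was higher in DN1eP (1.35 ± 0.23, limma adjusted p = 0.0169). Themis, needed for thymocyte selection, was higher by 2.18 (adjusted p = 0.0145) and the adaptor Lcp2 by 0.87. Zap70, the kinase that binds the ζ chain, was lower in every DN1eP library, at 29.8, 35.5, 38.9 and 30.9 FPKM in DN1eP and 67.8, 55.5 and 72.6 in NKT-3 (-0.93 ± 0.21, adjusted p = 0.0328), and so was Cd6, a receptor that damps T cell signalling (-1.27 ± 0.27, adjusted p = 0.0309).

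For the levels of NKT maturation genes in DN1eP, genes that differ by at least 2-fold between stages 1 and 3 (limma adjusted p under 0.05) were taken from libraries outside the comparison, the 2 stage 1 and 3 stage 3 libraries of higher median level. Of 10204 genes tested there, 776 were higher in stage 3 and 936 lower. Of the 737 higher genes that were tested here, 677 were called neither higher nor lower in DN1eP against NKT-3, 40 were higher and 20 lower. Their median log2 fold change was 0.07, and 235 had an interval within 2-fold. Of the 791 lower genes, 723 were called neither way, 54 were higher and 14 lower, and 233 had an interval within 2-fold, with a median of 0.20. Of all genes tested, 5.34% were called higher, 1.07% lower and 38.1% had an interval within 2-fold, so these counts do not set the maturation genes apart as alike in both populations. Without library 1 the calls were 151 and 110 of 732 for the first set, and 186 and 58 of 781 for the second, where 21.4% of all genes were higher and 5.74% lower.

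Set against the stage 1 mean of the low-median libraries, the higher genes had a median of 1.20, 1.27, 1.32 and 1.22 on log2(FPKM + 1) in DN1eP libraries 1 to 4. In NKT-3 libraries 4 to 6 it was 1.15, 1.13 and 0.93. Stage 2 libraries gave 0.22, 0.30 and -0.01. For the lower genes the medians were -1.22, -1.08, -1.15 and -1.12 in DN1eP, -1.24, -1.41 and -1.53 in NKT-3, and -0.12, -0.55 and -0.39 in stage 2. By these medians all 4 DN1eP libraries, library 1 included, lay nearer to each NKT-3 library than to any stage 2 library. The lower genes were less low in each DN1eP library than in each NKT-3 library. When the sets were chosen instead in the low-median libraries, which include the NKT-3 libraries compared, the calls were 17 higher and 27 lower of 416 and 124 higher and 5 lower of 1179. The most abundant of the higher genes within 2-fold were Nkg7, Cd7, Ctsw, Xcl1, Ctsd, Hcst, H2-K1, Gzma, Fcer1g and Cd2. Cd7, an immunoglobulin family receptor of T and NK cells, was at 2081, 1872, 1826 and 1620.5 FPKM in DN1eP and 1629, 1611 and 1297 in NKT-3 against 158 ± 103 in stage 1. H2-K1, a class I molecule, was at 738, 648, 791 and 794 FPKM in DN1eP and 775, 687 and 662 in NKT-3 against 254 ± 48.5.

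**Figure D3:**
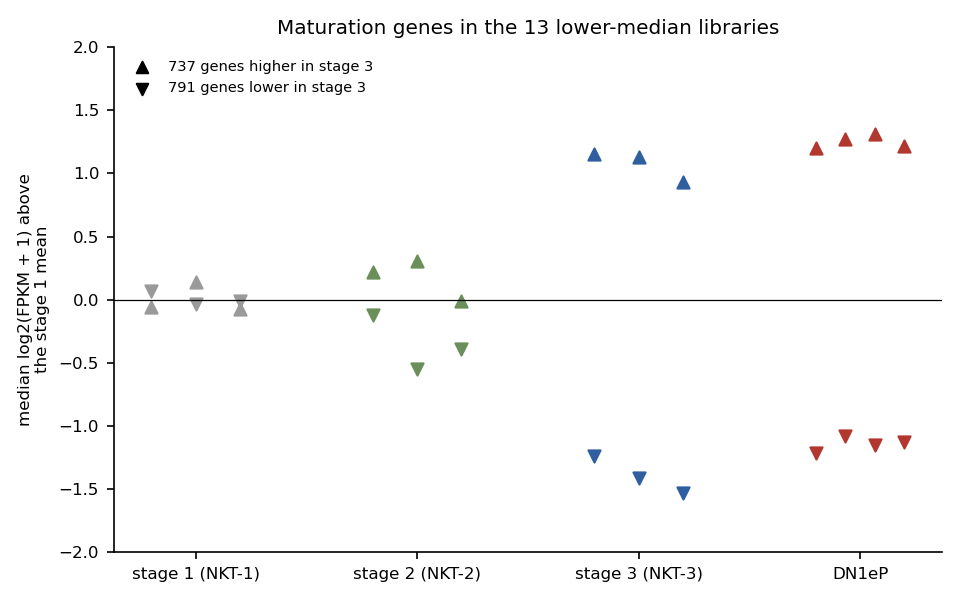
Median log2(FPKM + 1) above the stage 1 mean of the 737 genes higher (upward triangles) and the 791 genes lower (downward triangles) in stage 3 than in stage 1, 1 point per library. The sets were chosen in other libraries, and the 4 DN1eP libraries (red) lie between 1.20 and 1.32 and between -1.22 and -1.08, near the NKT-3 libraries (blue).

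NKT17 genes were often higher in DN1eP than in NKT-3. Of 18 such genes tested, 12 were called higher in DN1eP and 0 lower (0 at an unadjusted p under 0.05), with a median log2 fold change of 2.40. Without library 1, 16 were higher, and without NKT-3 library 5, 7 were. Over all genes 5.34% were called higher and 1.07% lower, and without library 1 21.4% were higher. Against stage 2, 2 of these genes were higher and 2 lower in DN1eP, where 16.8% and 8.37% of all genes were. Against stage 1 the counts were 10 and 2, where 14.5% and 15.4% of all genes were. A gene under 1 FPKM in the NKT-3 libraries passed the filter through DN1eP alone and could hardly be called lower. Sox13, Sdc1 and Il17re were such genes, so the counts against NKT-3 do not weigh both directions evenly. Il23r, a chain of the IL-23 receptor that maintains IL-17-producing cells, was at 16.0, 15.5, 21.2 and 12.4 FPKM in DN1eP libraries 1 to 4 and at 0.0209, 1.20 and 0.0297 FPKM in NKT-3 libraries 4 to 6. Every DN1eP library was above every NKT-3 library, and stage 2 held 29.5 ± 25.9 FPKM. The difference was 3.68 ± 0.35 SE (limma adjusted p = 0.00041) and was called in 7 of 7 fits without 1 library. Il1r1, the receptor of IL-1, which acts with IL-23, was at 15.4, 22.1, 31.5 and 27.1 FPKM in DN1eP libraries 1 to 4 and at 0.0315, 2.02 and 0.254 FPKM in NKT-3 libraries 4 to 6 (3.94 ± 0.39, adjusted p = 0.000595). Library 1 was inside the range of the other DN1eP libraries in Il23r and below it in Il1r1, and above every NKT-3 library in both genes.

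Tmem176b and Tmem176a, a neighbouring pair of membrane protein genes, were higher by 3.01 ± 0.34 and 2.68 ± 0.34, with Tmem176b at 186, 109, 114 and 95.9 FPKM in DN1eP and 9.79, 26.3 and 11.2 in NKT-3 and 96.5 ± 105 in stage 2. Both were called in 7 of 7 fits without 1 library, as was the aquaporin gene Aqp3 (1.78, limma adjusted p = 0.00659). Serpinb1a, a protease inhibitor, was at 173, 49.9, 39.5 and 51.2 FPKM in DN1eP and 2.35, 10.2 and 2.60 in NKT-3, highest in library 1 (3.68 ± 0.60, adjusted p = 0.0237). Blk, a Src family kinase of B cells and of IL-17-producing γδ T cells, was at 30.9, 57.3, 41.5 and 65.5 FPKM in DN1eP and 0.336, 9.49 and 0.358 in NKT-3 (4.16 ± 0.73, adjusted p = 0.0309). Also called were Rora (2.52), a nuclear receptor, Sox13 (2.28), a factor of γδ T cells, Itgb3 (1.87), an integrin chain, Sdc1 (1.66), a proteoglycan that marks NKT17 cells, and Il17re (1.43), a receptor of IL-17C. In the 3 NKT-3 libraries of higher median level Itgb3 was at 13.2 ± 2.68 FPKM (SD), above the DN1eP mean of 10.8. The means of Rora, Sox13, Sdc1 and Il17re there were below those of DN1eP. Ccr6, a chemokine receptor of IL-17-producing cells, was at 2.82, 24.6, 9.01 and 22.1 FPKM in DN1eP and 0, 5.50 and 0.0613 in NKT-3 and was not called with library 1 (adjusted p = 0.102). Maf, a factor needed by NKT17 cells, was at 41.1, 29.2, 37.0 and 37.1 FPKM in DN1eP and 72.0, 33.3 and 54.4 in NKT-3 (95% interval -1.08 to 0.09), and Il7r, the IL-7 receptor, had an interval within 2-fold at 499.7, 245, 247 and 207 FPKM in DN1eP and 357, 402 and 260.2 in NKT-3.

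NKT2 genes gave 1 call higher of 15 tested and 0 lower, with 2 lower at an unadjusted p under 0.05 (median 0.33). Over all genes 5.34% were called higher and 1.07% lower. Plac8, a small cysteine-rich protein gene, was at 201, 414, 296 and 304 FPKM in DN1eP libraries 1 to 4 and at 63.4, 50.3 and 46.6 FPKM in NKT-3 libraries 4 to 6. It was higher in all DN1eP libraries (2.45 ± 0.25 SE, limma adjusted p = 0.000768, 7 of 7 fits), and stage 1 held 839 ± 352 FPKM. Without library 1 there were 6 NKT2 genes higher and 1 lower, where 21.4% and 5.74% of all genes were. Ramp3, a partner of G protein-coupled receptors, was at 7.04, 293, 259 and 260.4 FPKM in DN1eP and 1.5002, 1.71 and 1.82 in NKT-3, and the gut-homing receptor Ccr9 at 1.93, 136, 107 and 104 FPKM in DN1eP and 0.660, 3.72 and 0.979 in NKT-3. In both, libraries 2 to 4 were high and library 1 was closer to the NKT-3 libraries (limma adjusted p = 0.0837 and 0.157 with it, and 2.15e-09 and 1.18e-06 without it). The costimulator Icos and the chemokine receptor Ccr4 showed the same split, at 107, 208, 242 and 176 FPKM in DN1eP and 108, 86.6 and 78.3 in NKT-3 and at 0.814, 15.4, 17.9 and 18.8 FPKM in DN1eP and 2.26, 1.13 and 2.003 in NKT-3. Cd4 was at 5.27, 0, 1.27 and 0.888 FPKM in DN1eP and 19.0, 2.42 and 19.6 in NKT-3.

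Trafficking genes, which set where a cell goes and stays, were higher in DN1eP in 5 of 25 cases with 0 lower (0 at an unadjusted p under 0.05; median 0.97). Without library 1 the calls were 15 and 2, and without NKT-3 library 5 they were 1 and 0. The shares over all genes were 5.34% higher and 1.07% lower, and 21.4% and 5.74% without library 1. S1pr1, the receptor with which T cells leave the thymus, was at 17.96, 59.0, 51.8 and 59.1 FPKM in DN1eP libraries 1 to 4 and at 3.09, 9.04 and 4.06 FPKM in NKT-3 libraries 4 to 6. The groups did not overlap, and library 1 was the lowest of the DN1eP libraries (2.88 ± 0.45 SE, limma adjusted p = 0.0164, 6 of 7 fits). The chemokine receptor Cx3cr1 (1.57) and the oxysterol receptor Gpr183 (0.80) were called too. Ccr7, which guides T cells to lymph nodes and the thymic medulla, was at 4.76, 136, 152 and 140.3 FPKM in DN1eP and 0.861, 1.92 and 0.459 in NKT-3, high in libraries 2 to 4 (adjusted p = 0.0787, and 3.73e-08 without library 1). The integrins Itgae and Itgb2 were within 2-fold. Cxcr6, a chemokine receptor of tissue-resident T cells, was at 2329, 841, 829 and 655 FPKM in DN1eP and 930.1, 954 and 733 in NKT-3, with library 1 above the rest.

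Inhibitory and costimulatory receptors gave 5 calls higher and 0 lower of 19, with 2 at an unadjusted p under 0.05 on the lower side (median 0.95). The calls were 12 and 2 without library 1, and 1 and 0 without NKT-3 library 5. All genes tested gave 5.34% higher and 1.07% lower, and 21.4% and 5.74% without library 1. Pdcd1, which encodes the inhibitory receptor PD-1, was at 85.2, 372, 367 and 367 FPKM in DN1eP libraries 1 to 4 and at 62.3, 28.7 and 51.0 FPKM in NKT-3 libraries 4 to 6. Libraries 2 to 4 were nearly equal and library 1 was just above the NKT-3 range (2.48 ± 0.56 SE, limma adjusted p = 0.0456, 1 of 7 fits). Crtam, an adhesion receptor of activated cytotoxic cells, was at 5.62, 19.6, 10.9 and 19.3 FPKM in DN1eP and 0, 1.41 and 0.669 in NKT-3 (3.08 ± 0.45, adjusted p = 0.00855, 6 of 7 fits). Lilrb4 (3.73), an inhibitory receptor of myeloid and some lymphoid cells, Tnfrsf9 (1.97), the costimulator 4-1BB, and Nt5e (1.40), the ectoenzyme CD73, were called as well. Ctla4 was at 0.536, 21.6, 20.1 and 9.21 FPKM in DN1eP and 0.552, 0.385 and 0.903 in NKT-3. Cd96 and Cd7 had intervals within 2-fold. Among 8 SLAM family and SAP genes, which NKT cells need for their selection, Slamf1 (1.73) and the SAP-related adaptor Sh2d1b1 (2.07, at 0.852, 7.41, 7.44 and 1.46 FPKM in DN1eP and 0.0388, 0 and 0 in NKT-3) were higher and 0 were lower (0 at an unadjusted p under 0.05).

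**Figure D4:**
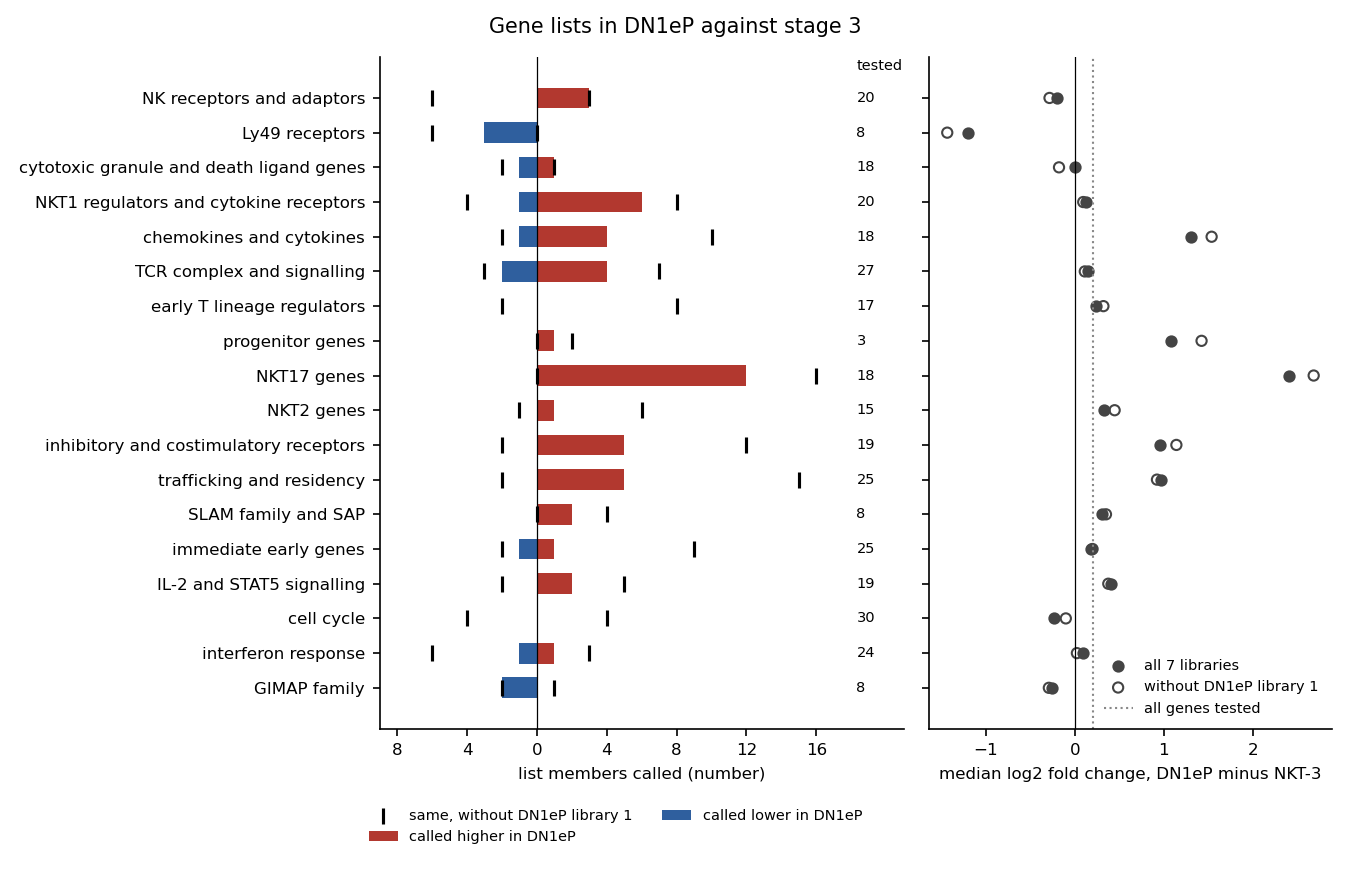
Members of each gene list called higher (red) or lower (blue) in DN1eP against NKT-3, with ticks for the counts without DN1eP library 1 and the number tested (left), and the median log2 fold change of each list with the value of all genes tested as a dotted line (right). NKT17 genes have 12 of 18 called higher and a median of 2.40, and Ly49 receptors 3 of 8 called lower and a median of -1.19.

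Genes of early T cell development did not pass the test with all libraries. Of 17 such regulators tested, limma called 0, while 6 were higher and 2 lower at an unadjusted p under 0.05. The median was 0.24, 0.02 after upper-quartile scaling and -0.04 after quantile normalization. Without library 1, 8 were called higher and 2 lower. Among all genes 5.34% were higher and 1.07% lower with all libraries, and 21.4% and 5.74% without library 1. Tcf7, which encodes TCF-1, the factor that starts the T cell program, was at 73.8, 276, 309 and 244 FPKM in DN1eP libraries 1 to 4 and at 59.8, 64.5 and 52.1 FPKM in NKT-3 libraries 4 to 6. Library 1 lay just above the NKT-3 range and libraries 2 to 4 far above it (limma adjusted p = 0.0529, and 8.4e-06 without library 1). Lef1, its relative, was at 25.5, 39.6, 35.7 and 40.3 FPKM in DN1eP and 18.3, 21.4 and 17.1 in NKT-3 and did not overlap either (adjusted p = 0.0511). Tox, a nuclear factor of thymic selection, was at 38.7, 89.0, 108 and 100.2 FPKM in DN1eP and 50.7, 27.4 and 36.2 in NKT-3, and Myb, which keeps progenitors, at 1.65, 22.4, 25.9 and 18.7 FPKM in DN1eP and 1.01, 2.94 and 1.05 in NKT-3. Id3, which TCR signals induce, was at 6.70, 36.5, 40.3 and 40.4 FPKM in DN1eP and 31.0, 20.2 and 24.6 in NKT-3, all below the 375 ± 68.9 FPKM of stage 1. Ets1 was within 2-fold.

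Progenitor genes were mostly too low to test: 3 of 16 passed the filter. Kit, the stem cell factor receptor of early progenitors, was at 1.66, 4.40, 2.58 and 5.16 FPKM in DN1eP and 0, 0.760 and 0 in NKT-3 (1.80 ± 0.40, limma adjusted p = 0.0326), and Hhex, a homeobox factor, at 10.5, 13.9, 7.59 and 20.96 FPKM in DN1eP and 15.6, 21.5 and 14.8 in NKT-3. Kit is also a receptor of mast cells, whose markers were higher in DN1eP. Of 30 cell cycle genes, limma called 0 in either direction, with 3 higher and 7 lower at an unadjusted p under 0.05 and a median of -0.23. Without library 1, 4 were higher and 4 lower, where 21.4% and 5.74% of all genes were. With all libraries 5.34% of all genes were called higher and 1.07% lower. The proliferation marker Mki67 was at 1.86, 1.84, 1.58 and 0.936 FPKM in DN1eP and 2.90, 3.18 and 2.53 in NKT-3 and the replication clamp gene Pcna at 164, 271, 308 and 211 FPKM in DN1eP and 156, 119 and 95.8 in NKT-3. Against stage 1, 27 of the 30 were lower in DN1eP, and against stage 2, 28 were, where 15.4% and 8.37% of all genes were lower.

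Immediate early genes are switched on within minutes of a signal and also by handling of cells. They gave 1 call higher and 1 lower of 25 (median 0.18, and -0.02 and -0.07 after the 2 scalings), and 9 and 2 without library 1. The shares of all genes were 5.34% and 1.07%, and 21.4% and 5.74% without library 1. Btg2, an antiproliferative gene, was higher (0.86, limma adjusted p = 0.0499), and Myc, a driver of cell growth, was lower at 31.1, 10.8, 21.3 and 11.9 FPKM in DN1eP and 43.3, 53.1 and 40.7 in NKT-3 (-1.35 ± 0.33, adjusted p = 0.0427). The 3 NKT-3 libraries of higher median level held Btg2 at 336 ± 81.9 FPKM (SD), against a DN1eP mean of 313. They held Myc at 54.1 ± 7.95, against 18.8. Fos, a subunit of AP-1, was at 237, 96.8, 163 and 164 FPKM in DN1eP and 489, 15.9 and 388 in NKT-3, and the phosphatase gene Dusp1 at 193, 83.3, 81.6 and 65.3 FPKM in DN1eP and 316, 38.6 and 258 in NKT-3. NKT-3 library 5 was the lowest of all in both, and without it and DN1eP library 1 Fos was lower in DN1eP (-1.66, limma adjusted p = 0.00137). Of 19 IL-2 and STAT5 genes, Bcl2l11 (1.62), which encodes the death-promoting protein BIM, and Socs3 (1.69), an inhibitor of cytokine signals, were higher and 0 were lower (2 at an unadjusted p under 0.05). Each of the 2 calls was kept in 1 of 7 fits that left out 1 library and was lost with all 6 NKT-3 libraries (Bcl2l11 0.67, limma adjusted p = 0.398, Socs3 0.14, adjusted p = 0.913). In the 3 NKT-3 libraries of higher median level Bcl2l11 was at 25.7 ± 1.34 FPKM and Socs3 at 19.3 ± 4.02 (SD), against means of 23.8 and 7.39 in DN1eP. The survival gene Bcl2 was within 2-fold at 27.0, 29.6, 25.4 and 25.3 FPKM in DN1eP and 27.6, 32.5 and 29.0 in NKT-3, above the 3.96 ± 0.818 FPKM of stage 1. Ccnd3, a cyclin, was at 28.1, 8.08, 3.09 and 9.61 FPKM in DN1eP and 39.1, 33.8 and 30.4 in NKT-3.

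Interferon response genes gave 1 call in each direction of 24 (median 0.10, and -0.10 and -0.18 after the 2 scalings), with 3 higher and 6 lower without library 1. Of all genes, 5.34% were called higher and 1.07% lower with all libraries, and 21.4% and 5.74% without library 1. Ifitm1, an antiviral membrane protein gene, was at 72.3, 41.5, 50.4 and 64.2 FPKM in DN1eP and 21.3, 13.7 and 10.0 in NKT-3 (1.89 ± 0.29, limma adjusted p = 0.0105), and Ifit1, an RNA-binding antiviral gene, at 79.8, 35.4, 33.6 and 39.3 FPKM in DN1eP and 106, 84.8 and 98.1 in NKT-3 (-1.11 ± 0.29, adjusted p = 0.0473). The 3 NKT-3 libraries of higher median level held Ifit1 at 24.7 ± 4.23 FPKM (SD), below each DN1eP library, and Ifitm1 at 11.2 ± 5.79. The lower level of Ifit1 in DN1eP thus holds only against NKT-3 libraries 4 to 6. Of 8 GIMAP genes, GTPases of lymphocyte survival, Gimap3 (-0.97) and Gimap5 (-1.02) were lower and 0 were called higher (2 at an unadjusted p under 0.05). Gimap5 was at 30.2, 14.4, 17.9 and 22.5 FPKM in DN1eP and 43.1, 41.8 and 43.0 in NKT-3. Of the 8 genes, 7 were higher in DN1eP than in stage 1 and 7 than in stage 2, where 14.5% and 16.8% of all genes were.

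Genes of other cell types were present in some DN1eP libraries. Prss34, a protease of mast cells and basophils, was at 36.7, 375, 334 and 363 FPKM in DN1eP libraries 1 to 4 and at 2.50, 0 and 0 FPKM in NKT-3 libraries 4 to 6. Mcpt8, a basophil protease, was at 22.3, 162, 135 and 155 FPKM in DN1eP and 3.45, 0 and 0 in NKT-3, and Cpa3, the mast cell carboxypeptidase, at 12.7, 48.1, 34.4 and 31.2 FPKM in DN1eP and 0.267, 8.08 and 0.136 in NKT-3. Of 12 mast cell and basophil markers, 5 were listed at 0 in all 7 libraries, 6 were tested, and 5 of these were called higher. Over all genes 5.34% were called higher and 1.07% lower. The 6 passed the filter through the DN1eP libraries, where they were high, and could hardly have been called lower. Prss34 rose by 7.07 ± 0.9998 SE and Mcpt8 by 5.85 ± 0.89 (limma adjusted p = 0.028 and 0.0287), while Ms4a2, the β chain of the IgE receptor, was at 5.197, 5.65, 4.54 and 11.5 FPKM in DN1eP and 0.0592, 0 and 0 in NKT-3 and was called in 7 of 7 fits. Hdc, which makes histamine, was called too (2.14), and Fcer1a, the α chain of the IgE receptor, was not (0.0592, 16.6, 4.45 and 5.00 FPKM in DN1eP and 0.116, 0 and 0 in NKT-3). Stage 1 libraries held 22.7 ± 39.3 FPKM of Prss34.

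Library 1 held another set of such genes. Mpo, myeloperoxidase of neutrophils and their precursors, was at 271, 28.8, 26.6 and 17.97 FPKM in DN1eP and 0.0407, 0 and 0.0145 in NKT-3, and the neutrophil protease genes Elane and Prtn3 were at 87.1 and 11.2 FPKM in library 1, with Elane at 0.717 in library 4 and both at 0 in the rest. Ctsg, a further such protease, was at 19.0, 2.28, 9.17 and 10.9 FPKM in DN1eP and 0.0597, 0 and 0 in NKT-3 (3.21 ± 0.52, limma adjusted p = 0.0145). Mpo was called higher (5.48). Csf3r, the receptor of granulocytes for G-CSF, was instead high in libraries 2 to 4 and low in library 1, at 0.748, 8.47, 8.09 and 5.66 FPKM in DN1eP and 0.389, 0.0566 and 0.00026 in NKT-3, and was called higher too (2.31). Summed over 15 neutrophil and monocyte markers, library 1 held 394 FPKM, libraries 2 to 4 38.2 to 50.3, NKT-3 library 5 125 and the other NKT-3 libraries at most 3.86.

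The remaining markers were low or mixed. Summed B cell markers were at 47.8 to 94.8 FPKM in DN1eP and 7.55 to 64.0 in NKT-3. Cd79b (3.04) and Cd72 (1.98) were called higher among them, while the defining gene Cd79a was at most at 0.0434 FPKM in the DN1eP libraries. Dendritic and class II markers summed to 5.88 to 72.4 in DN1eP and to 2.26 to 131 in NKT-3, with the chemokine receptor Xcr1 called (2.07, at 2.13, 11.1, 11.7 and 11.2 FPKM in DN1eP and 1.46, 1.10 and 0.755 in NKT-3). Of 8 markers of double-positive thymocytes, 0 were called by limma (1 higher and 1 lower at an unadjusted p under 0.05), and Dntt, the template-free DNA polymerase of receptor rearrangement, was at 0.626, 8.78, 12.6 and 11.003 FPKM in DN1eP and 1.42, 15.8 and 0.400 in NKT-3. Of 13 markers of thymic stroma, 2 were tested: Psmb11, a proteasome subunit of cortical epithelium, at 1.27, 10.2, 12.2 and 11.1 FPKM in DN1eP and 0.989, 0.0152 and 0.00722 in NKT-3 (2.65, limma adjusted p = 0.039), and Pecam1, of endothelium and some blood cells, at 6.43, 32.3, 36.7 and 30.6 FPKM in DN1eP and 5.84, 2.77 and 7.45 in NKT-3. The part of cells of these kinds in the differences above was not tested.

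Among the largest rises of called genes of at least 10 FPKM without overlap were those of Prss34, Mcpt8, Mpo, Emb, Cd63, Blk, Car2, Il1r1 and Ncr1, from 7.07 to 3.78 on the log2 scale. Emb, embigin, a partner of lactate transporters, was at 36.9, 85.4, 110.5 and 91.5 FPKM in DN1eP libraries 1 to 4 and at 0.532, 3.04 and 0.364 FPKM in NKT-3 libraries 4 to 6 (5.23 ± 0.45 SE, limma adjusted p = 0.000513). Stage 1 held 32.3 ± 7.78 and stage 2 62.5 ± 41.1 FPKM. Car2, a carbonic anhydrase, was at 35.3, 53.4, 57.7 and 49.5 FPKM in DN1eP and 1.71, 1.51 and 2.80 in NKT-3 (4.05 ± 0.27, adjusted p = 2.43e-05), against 0.923 FPKM in stage 2. Cd63, a tetraspanin of lysosomes and granules, was at 16.0, 26.2, 31.6 and 29.5 FPKM in DN1eP and 0.480, 0.346 and 0.268 in NKT-3 (4.26 ± 0.30, adjusted p = 3.24e-05). These 3 were among the 16 genes called in each of the 7 fits without 1 library, with Ncr1, Il23r, Il1r1, Tmem176b, Tmem176a, Aqp3, Plac8, Ms4a2 and the genes Clec12a, an inhibitory lectin of myeloid cells (2.86), Tns4, a tensin (2.69), Scpep1, a carboxypeptidase (2.34), and Pdlim1, a cytoskeletal adaptor (2.29).

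The 10 largest falls by the same rule held several short RNA genes, for which FPKM is unreliable. Mir3112 was at 71.3, 166 and 101 FPKM in NKT-3 and listed at 0 in each DN1eP library (limma adjusted p = 9.39e-07). Snord7, Snora78 and Rnu12, small nuclear and nucleolar RNAs, and the genes BC048507 and 4930503E24Rik were lower, at changes of -5.67, -3.58, -3.23, -3.55 and -3.47. In 4 of these 5 genes libraries 2 to 4, the shallow ones, were at 0, and the part of depth was not tested. The histone H4 genes Hist1h4c (-2.60 ± 0.39), Hist1h4n (-2.08 ± 0.37) and Hist1h4a (-1.94 ± 0.48) and the ribosomal pseudogene Rplp2-ps1 (-1.98 ± 0.36) are near-identical to other genes, and how reads were divided among the copies is uncertain.

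Library 1 of DN1eP can be set against calls it did not enter. Those calls and the position of library 1 rest on the same 3 NKT-3 libraries, so the shares below are not independent of the calls. Of the 2089 genes called higher without it, library 1 was above all 3 NKT-3 libraries in 1139 (54.5%), inside their range in 794 (38.0%) and below it in 156 (7.47%). Of the 561 called lower, it was below the range in 306 (54.5%), inside in 176 (31.4%) and above in 79 (14.1%). Among the 7128 genes called neither way, the shares were 34.7% above, 44.1% inside and 21.2% below. Among NKT17 genes, Serpinb1a, Tmem176b and Il23r were at levels in library 1 inside or above the range of the others. Il1r1, Blk, Rora, Sox13, Itgb3, Sdc1, Il17re and Ccr6 were lower in library 1 than in each of the others. Il17f, Ramp3, Ccr7 and Ccr9 were near NKT-3 in library 1, and Gzmb and Klra9 nearer to NKT-3 than to libraries 2 to 4.

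**Figure D5:**
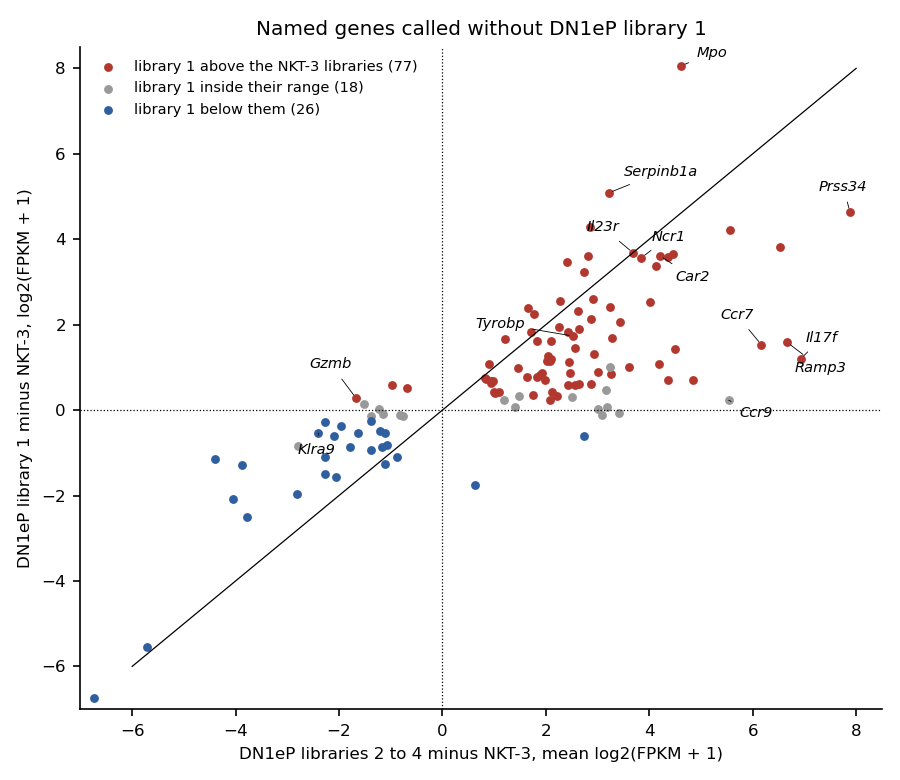
Difference from the NKT-3 mean on log2(FPKM + 1) of DN1eP libraries 2 to 4 (mean, horizontal) and of library 1 (vertical) for the 121 named genes called without library 1, with the line of equal differences. Library 1 lay above the NKT-3 libraries in 77 of them, inside their range in 18 and below it in 26.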

How the data were processed

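The authors deposited FPKM values per transcript row and library, with 95% bounds, made from reads aligned to mm9; the submitters' processing notes name TopHat2 2.0.6 and Cufflinks 2.1.1. Strand use and read counts are not given in the sources used here. Rows were summed per gene symbol. Of 23267 symbols, 23168 were kept: 86 were not in every file, and 13 had a value marked as failed. Depth was estimated from the FPKM of 1 fragment, over single transcripts of 1000 to 4000 bases.

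The test was limma 3.58.1 in R 4.3.3 (eBayes with trend and robust) on log2(FPKM + 1) as deposited. It took the genes that reached 1 FPKM in 3 or more of the 7 libraries, and p-values were adjusted by Benjamini-Hochberg with a threshold of 0.05. A gene under 1 FPKM in the NKT-3 libraries entered only through DN1eP and could hardly be called lower, and the reverse also held. Tables were made with python 3.11.15 and pandas 2.3.3. The groups compared, the 449 genes in 27 lists (446 in the files) and the rules were chosen with earlier results of these data known. Samples were grouped by their labels. The text names the sort gate genes and 5 regulators. Of each other list it names up to 5 called members per direction with the largest changes and up to 4 members within 2-fold by mean FPKM. It names the 10 largest rises and falls among called genes of at least 10 FPKM without overlap, the 10 most abundant maturation genes within 2-fold, and other cell types' markers at 10 FPKM or more in 1 of the 7 libraries. The genes Klrd1, Klre1, Klrk1, Gzmb, Prf1, Fasl, Ccl3, Ccl4, Il17f, Ifng, Il17a, Ifngr1, Id2, Il2rb, Il12rb2, Ifngr2, Tmem176a, Aqp3, Rora, Sox13, Il17re, Sdc1, Itgb3, Ccr6, Maf, Icos, Ccr4, Ramp3, Ccr9, Ccr7, Cxcr6, Ctla4, Tcf7, Lef1, Tox, Myb, Id3, Hhex, Fos, Dusp1, Ccnd3, Mki67, Pcna, Clec12a, Tns4, Scpep1 and Pdlim1 lie outside this rule and were chosen after their values were seen. A few items are not reported here. The fits were tested on simulated data. Alternatives were other pseudocounts, filters, scalings and fits, and leaving out each library.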

Additional observations from a re-analysis of the deposited data

Results flagged for a closer look

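For 38 of 166 genes named in the text that reached 1 FPKM in a DN1eP library, 1 DN1eP library lay far from the other 3: the gap to the nearest was over the 95% limit of Dixon's test for 4 values. Chance alone does this in about 1 of 20 groups. In 37 of the 38 the library was number 1. It was above the other DN1eP libraries in Cxcr3 (423), Klrc1 (433), Klre1 (283), Klrk1 (383), Klra9 (508), Gzma (954), Gzmb (978), Gzmc (16.6), Prf1 (88.5), Nkg7 (5382), Ctsw (1154), Ifng (136), Id2 (4363), Serpinb1a (173), Il7r (499.7), Cxcr6 (2329), Itgb2 (548), Dusp1 (193), Ifit1 (79.8), Mpo (271), Elane (87.1), Prtn3 (11.2), S100a8 (1.55), Snora78 (8.49), BC048507 (2.91), 4930503E24Rik (1.42), Rnu12 (5.06) and Cd2 (804), in FPKM of library 1. It was below them in Ifngr2 (0.966), Sox13 (1.92), Ramp3 (7.04), Ccr7 (4.76), Pdcd1 (85.2), Id3 (6.70), Bcl2l11 (7.46), Prss34 (36.7) and Xcr1 (2.13). The remaining gene was Ms4a2, with library 4 at 11.5 FPKM. The genes above include NK, cytotoxic and neutrophil genes, and those below include mast cell, trafficking and inhibitory receptor genes. The genes were named with these values known.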

How the results depend on the processing

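The count of 637 called genes depended on the libraries and settings. Leaving out 1 library (or DN1eP library 1 and NKT-3 library 5) gave 16 to 2650 calls for DN1eP minus NKT-3, with 2650 without DN1eP library 1, 72, 132 and 66 without libraries 2, 3 and 4, 46 without NKT-3 library 5 and 16 without library 6. It gave 2385 to 3805 genes within 2-fold (2385 and 2401 without NKT-3 libraries 4 and 5), 1519 to 1761 maturation genes, 1815 to 3688 calls against stage 1 (1815 without NKT-1 library 3), 1465 to 3252 against stage 2 (1465 without NKT-2 library 7, 1533 and 1596 without DN1eP libraries 2 and 3), and 0 to 261 and 3 to 244 calls among maturation genes higher and lower in stage 3. The cause was not tested. The 3 counts (calls, and calls among maturation genes higher and lower in stage 3) were 21, 0 and 4 with no filter on low values, 309, 39 and 44 after upper-quartile scaling, 1688, 122 and 154 with all 13 low-median libraries in 1 fit, 2786, 198 and 266 with all 26 libraries and library set as a term, and 12, 0 and 2 by limma treat against a 2-fold change, which asks for more than any difference. All 6 NKT-3 libraries gave 1082 calls. Genes within 2-fold numbered 9303 with no filter, 5741 with all 26 libraries and 2011 with all 6 NKT-3 libraries. Maturation genes lower in stage 3 gave 129 calls when chosen in the low-median libraries. Of the single genes named in the text, Fos alone turned direction in a called result, to -1.66 without DN1eP library 1 and NKT-3 library 5, and reached 0.97 without NKT-3 library 4. Of 89 called genes named in the text, all 89 were called the same way without DN1eP library 1, 85 with a pseudocount of 0.1, 61 after upper-quartile scaling, 66 after quantile normalization, 65 with all 6 NKT-3 libraries and 89 with the highest row per symbol. Alternatives for maturation genes, levels within 2-fold and the stage 1 and 2 comparisons were in part added after the data were seen. No paired analysis was possible because the groups share only replicate number 4. Shallow depth widens the values of DN1eP libraries 2 to 4.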
